A study of Mus musculus with 25 samples.

Results

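The mature microRNAs mmu-miR-101a-3p and mmu-miR-101b-3p were followed across mouse mammary tumours and normal mammary gland, as 2 of the 1122 mouse miRNAs on a 1-colour Agilent miRNA array. They were chosen by name, as known repressors of Ezh2 and because an earlier look at these arrays had shown miR-101a-3p to be lower in tumours with Trp53 deletion. Their levels in that contrast and against normal gland are therefore given as a description with no test. The tests of the members below use comparisons that the choice did not use. Lists of other miRNAs were also tested in the contrasts tied to the choice, and these lists were chosen with earlier results of these data known.

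The series held 25 arrays, 1 per sample, of total RNA from snap-frozen tissue of female FVB mice. The Normal group was 2 pools of wild-type mammary tissue, 1 from multiparous and 1 from nulliparous mice. The Met group was 7 tumours of MMTV-Met mice, in which the mouse mammary tumour virus promoter drives the receptor tyrosine kinase Met mainly in mammary epithelium. The MetTrp53 group was 8 tumours of MMTV-Met;Trp53fl/+ mice and the Trp53 group 8 tumours of Trp53fl/+ mice, both with Cre, so that 1 of 2 Trp53 alleles could be deleted by design. They are called Trp53-deleted tumours here; the labels give neither the promoter of Cre nor the state of the other allele. The ages of the mice are not given, and nothing states that every tumour came from a separate animal. Among the 8 Trp53 tumours, 2 pairs (tumours 2 and 3, and tumours 4 and 8) share a number in their titles. Each tumour was counted as 1 sample. If a pair came from 1 mouse, its tumours would not be independent, and standard errors and p-values could be too small. A p-value here reflects only the variation among these samples, which may be partly technical. Each group of tumours mixed pathologies. Carcinomas (all adenocarcinomas, solid nodular and adenosquamous tumours) made up 6 Met, 3 MetTrp53 and 3 Trp53 tumours. Spindloid tumours, named for their spindle-shaped cells, made up 1, 3 and 3, intermediate tumours 0, 1 and 2, and the pathology of 1 MetTrp53 tumour was not stated.

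MicroRNAs are short RNAs that guide Argonaute proteins to messenger RNAs, mainly by pairing of the seed, bases 2 to 8 from the 5′ end, and so lower the output of those messages. The miR-101 family is known for repressing Ezh2, the catalytic subunit of Polycomb repressive complex 2, which methylates histone H3 at lysine 27. Loss of miR-101 together with high EZH2 has been described in several carcinomas. Ezh2 itself was not measured on these arrays.

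The sequences show how near-identical the family members are, which matters because the array reads them by hybridisation. They are the RefSeq mature sequences (build GRCm38.p6), with the seed in capitals; all 3 matched by name.

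mmu-miR-101a-3p: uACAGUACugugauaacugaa
mmu-miR-101b-3p: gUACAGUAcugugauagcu
mmu-miR-101c: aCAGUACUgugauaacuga

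mmu-miR-101a-3p comes from Mir101a on the minus strand, at chr4:101346957-101346977, inside the span of the lncRNA gene E130102H24Rik on the same strand. mmu-miR-101b-3p comes from Mir101b on the plus strand, at chr19:29135338-29135356, inside the span of Rcl1, a protein-coding gene on the same strand. Whether either lies in an exon or an intron was not analysed here. The annotated 5′ ends differ by 1 base, so the seeds as annotated are shifted against each other, although both miRNAs hold the run ACAGUAC within their first 10 bases. Over the 18 aligned bases, 17 were identical, and the single substitution was A16G, counted from the 5′ end of miR-101a-3p. The sequence annotated as mmu-miR-101c (chr9:3038680-3038698, minus strand) was contained whole in miR-101a-3p, 19 of 19 bases. Among the 1679 mature mouse names in the RefSeq table, these 3 were the only ones with ACAGUAC in the first 10 bases.

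Each member was read by 2 probes of 20 spots. Values below are the mean signal of a probe's usable spots on an array, divided by that array's 75th percentile over 221 reference probes, each well measured on every array. They were multiplied by 549, the geometric mean of those percentiles, and are called scaled intensity. Both miRNAs were dim. The brighter miR-101a-3p probe gave unscaled intensities of 6.20 to 88.1 and the brighter miR-101b-3p probe 9.12 to 41.2, with a median variation between spots of 13.5% for each. A spot's background error was 1.82 to 4.60 intensity units over the arrays. In the fits, scaled values under 11.6, the mean of the arrays' lowest well-measured signals, were raised to that floor. The 2 probes of miR-101a-3p followed each other closely over the 25 arrays (r = 0.993 on the log2 scale, a description over arrays). The weaker miR-101b-3p probe was at the floor on 23 of 25 arrays, so that the mean over both probes understates any change of that miRNA.

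The levels of miR-101a-3p were ordered by genotype. Its brighter probe had a scaled intensity of 44.2 in the multiparous normal pool and 57.8 in the nulliparous pool. In Met tumours the lowest, median and highest values were 26.1, 33.0 and 48.1, in MetTrp53 tumours 13.1, 20.7 and 91.0, and in Trp53 tumours 8.08, 15.3 and 26.1. Of the tumours, 6 Met tumours, 7 MetTrp53 tumours and all 8 Trp53 tumours lay below both pools. Of the 16 Trp53-deleted tumours, 15 lay below the lowest Met tumour, and the exception, MetTrp53 tumour 3, lay above both pools. The lowest Met tumour and the highest of those 15 nearly coincided (26.087 and 26.071), far closer than the variation between spots, so no gap separated them. With MetTrp53 tumour 3, the range of the Trp53-deleted tumours held all Met values. How many other miRNAs divide the groups in this way was not counted.

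**Figure D1:**
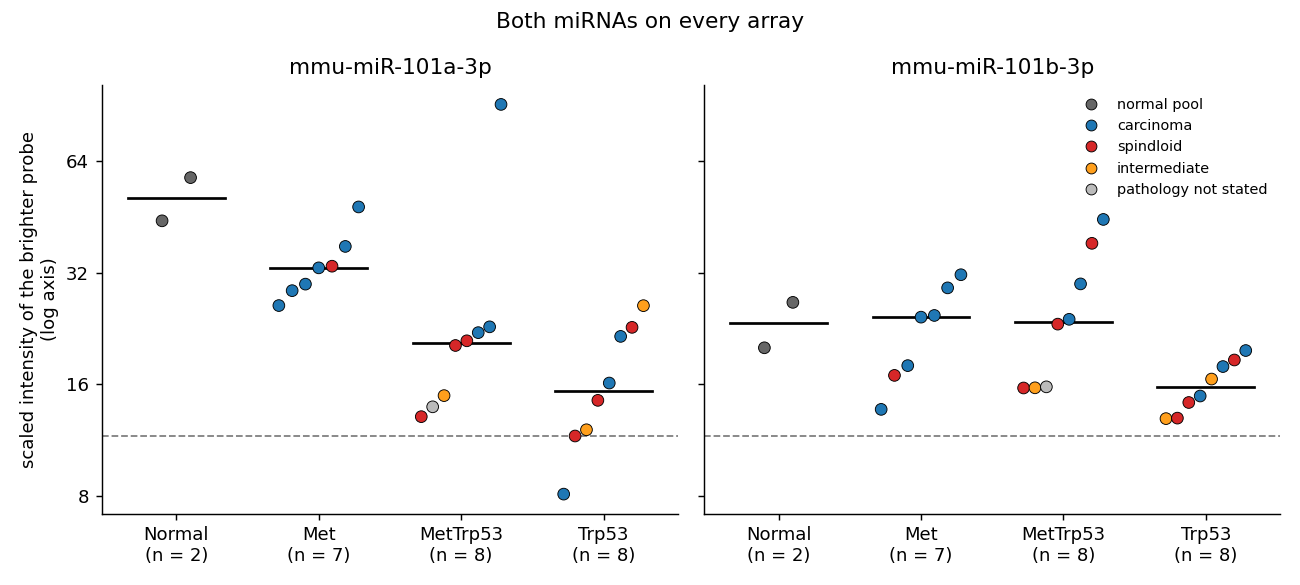
Scaled intensity of the brighter probe of each miRNA (vertical axis, log scale) on all 25 arrays by group, coloured by pathology; black bars are group medians and the dashed line is the floor of 11.6 used in the fits. miR-101a-3p steps down from the pools (44.2 and 57.8) to a median of 33.0 in Met, 20.7 in MetTrp53 and 15.3 in Trp53 tumours, with 1 MetTrp53 tumour at 91.0, while the medians of miR-101b-3p are 24.3, 23.6 and 15.7 in the same tumour groups.

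On the log2 scale, with both probes averaged and limma's shared estimate of the spread, miR-101a-3p was lower than in the pools by 0.62 in Met (difference -0.62, SE 0.45), by more in MetTrp53 (-1.22, SE 0.45) and by most in Trp53 tumours (-1.62, SE 0.45). The mean over the 3 tumour genotypes was -1.16 (SE 0.42), 2.23-fold lower. Between tumour groups, MetTrp53 minus Met was -0.60 (SE 0.29, 95% interval -1.21 to 0.01) and Trp53 minus Met -0.99 (SE 0.29, interval -1.60 to -0.39). The intervals of the neighbouring steps, Met minus Normal (-1.56 to 0.32), MetTrp53 minus Met, and MetTrp53 minus Trp53 (-0.19 to 0.98), all held 0. The mean of both Trp53-deleted groups minus Met was -0.80 (SE 0.26), or 1.74-fold lower. Without MetTrp53 tumour 3 it was -0.94 (SE 0.15). Apart from MetTrp53 minus Trp53, these numbers restate the contrast that chose the miRNA, and their intervals are no test, whether or not they hold 0. In that contrast limma called 11.5% of the 330 miRNAs tested (38, with 19 higher and 19 lower), and in tumours minus normal 12.7% (42, with 16 higher and 26 lower; 5 higher and 39 lower when arrays were scaled over all mouse probes).

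The 2 probes of miR-101a-3p gave nearly the same size without any floor: Trp53-deleted minus Met was -0.85 for the brighter probe and -0.91 for the other. Arrays came on 5 slides, each with Met and Trp53-deleted tumours. Within slides the brighter probe's difference was -1.12, -0.83, 0.36, -1.28 and -1.15 on slides 1 to 5. Slide 3, where it was positive, carried MetTrp53 tumour 3, and without that tumour its difference was -0.29. Signal was near background at the lower end: 50% or more of the brighter probe's spots were well above background on 22 of 25 arrays, and the 3 below that share were Trp53 tumours 1 (3 of 20 spots), 2 (0 of 20) and 6 (7 of 20).

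Values within 1 pathology or parity are given as description. The 1 spindloid Met tumour had 33.3, above all 6 spindloid Trp53-deleted tumours (11.6 to 22.8). Carcinomas spanned 26.1 to 48.1 in Met and 8.08 to 91.0 in Trp53-deleted tumours, with medians of 31.4 and 21.8. Among tumours of multiparous mice, 6 Met tumours spanned 26.1 to 37.7 and 4 Trp53-deleted tumours 12.1 to 91.0, a range that holds all of the Met values, with medians of 31.4 and 22.4. No Met tumour was stated to come from a nulliparous mouse, so parity and genotype cannot be fully told apart. With spindloid and intermediate pathology as covariates, the difference between Trp53-deleted and Met tumours was -0.59 (SE 0.29, 22 tumours).

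The levels of miR-101b-3p were ordered differently. Its brighter probe had 20.1 and 26.6 in the multiparous and nulliparous pools. The lowest, median and highest values were 13.7, 24.3 and 31.6 in Met tumours, 15.6, 23.6 and 44.5 in MetTrp53 tumours, and 12.9, 15.7 and 19.7 in Trp53 tumours. Met and MetTrp53 tumours lay on both sides of the pools: 3 of 7 and 3 of 8 below both, 2 of 7 and 3 of 8 above both. All 8 Trp53 tumours lay below both pools. The floored mean over both probes differed little, by -0.08 (SE 0.19) for tumours minus normal and by -0.06 (SE 0.11) for Trp53-deleted minus Met; with the brighter probe alone these were -0.20 (SE 0.32) and -0.16 (SE 0.20). MetTrp53 tumours 3 and 7 were highest, at 44.5 and 38.4. Within slides the brighter probe's Trp53-deleted minus Met difference took both signs, from -0.55 to 0.18.

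Within each array the log2 ratio of the 2 brighter probes removes the array's scaling. Its absolute size has no meaning across probes, but its shift between samples does. The ratio was 1.12 and 1.14 in the 2 pools. It averaged 0.61 ± 0.44 (SD, n = 7) in Met, -0.13 ± 0.55 (SD, n = 8) in MetTrp53 and -0.02 ± 0.57 (SD, n = 8) in Trp53 tumours. All 23 tumours lay below both pools, the highest at 1.03 in MetTrp53 tumour 3. Relative to miR-101b-3p, miR-101a-3p thus read lower in every tumour than in the 2 pools. In MetTrp53 tumour 3, the highest in both, the shift was too small to rely on. It was about the SD of the log2 difference between the 2 miR-101a-3p probes (0.098) and below that for miR-101b-3p (0.196). In some Trp53 tumours the miR-101a-3p signal was near background, and the ratio was not tested. The ratio also carries the fall of miR-101a-3p that chose the members. How many other pairs of miRNAs set all tumours apart from the 2 pools was not counted.

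**Figure D2:**
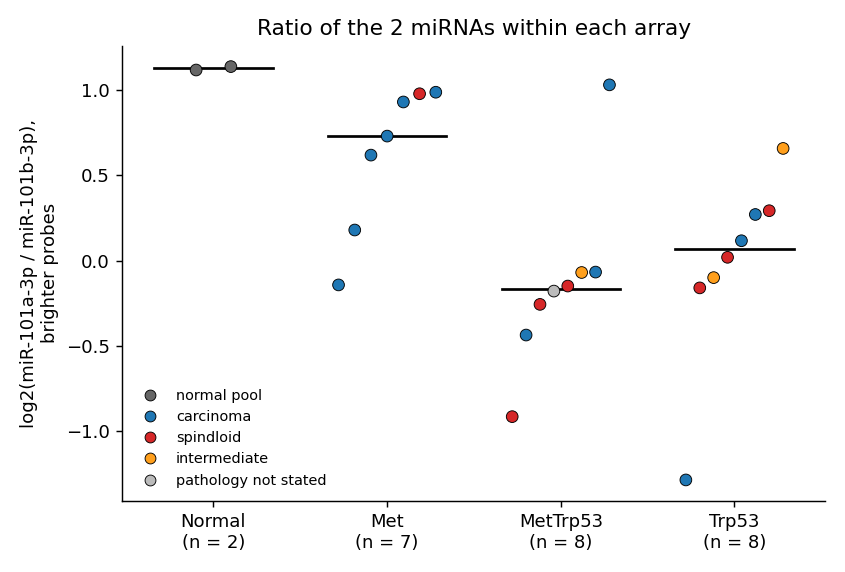
Log2 ratio of the brighter miR-101a-3p probe to the brighter miR-101b-3p probe within each array (vertical axis) by group, coloured by pathology, with black bars at group medians. The pools sit at 1.12 and 1.14 and every tumour lies below them; medians are 0.73 in Met, -0.16 in MetTrp53 and 0.07 in Trp53 tumours, and only shifts between samples can be read, since probes differ in brightness.

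The first comparison that the choice did not use asked whether the 2 kinds of Trp53-deleted tumour differ by the presence of MMTV-Met. miR-101b-3p was higher in MetTrp53 than in Trp53 tumours by 0.34 on the log2 scale (SE 0.13, 95% interval 0.08 to 0.61, 1.27-fold), with an unadjusted p of 0.0126 and an adjusted p of 0.293 by limma, and so was not called. With the brighter probe alone the difference was 0.60 (SE 0.22, limma adjusted p = 0.253), and over the alternatives in processing the difference of miR-101b-3p ran from 0.03, with normexp, to 0.60. On that probe, 5 of 8 MetTrp53 tumours lay above all 8 Trp53 tumours, and how many other miRNAs overlap as little was not counted. miR-101a-3p differed by 0.39 (SE 0.28, interval -0.19 to 0.98, limma adjusted p = 0.873), and by 0.10 without MetTrp53 tumour 3. limma called 0% of the 330 miRNAs in this comparison, with 23 at an unadjusted p under 0.05; a trended, robust variance model also called 0. Over the alternatives the adjusted p of miR-101b-3p ranged from 0.0209, with no detection filter, to 0.953.

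Spindloid tumours were set against all other stated pathologies in 22 tumours, with genotype as a covariate. On the brighter probe, miR-101a-3p had a lowest, median and highest value of 11.6, 20.4 and 33.3 in 7 spindloid tumours, 12.1, 14.9 and 26.1 in 3 intermediate tumours, and 8.08, 27.4 and 91.0 in 12 carcinomas. For miR-101b-3p the values were 12.96, 16.9 and 38.4 in spindloid tumours, 12.9, 15.6 and 16.5 in intermediate tumours, and 13.7, 24.1 and 44.5 in carcinomas. The ranges overlapped throughout. The fitted difference was -0.29 (SE 0.27, interval -0.86 to 0.27) for miR-101a-3p and -0.10 (SE 0.12, interval -0.35 to 0.15) for miR-101b-3p, with limma adjusted p-values of 0.732 and 0.810. Without MetTrp53 tumour 3, a poorly differentiated adenocarcinoma, the differences were -0.07 and -0.03. limma called 0% of the 330 miRNAs, with 41 at an unadjusted p under 0.05, and 0 with a trended, robust variance model; 16 were called with the intermediate tumours left out, where the members' adjusted p-values were 0.609 and 0.515 (lowest over all alternatives, 0.389 for each).

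Parity was compared in the 13 Trp53-deleted tumours for which it was stated, 4 from multiparous and 9 from nulliparous mice, with genotype as a covariate. On the brighter probe, the multiparous tumours had miR-101a-3p at 22.05 and 91.0 (MetTrp53 tumours 1 and 3) and at 12.1 and 22.8 (Trp53 tumours 6 and 7), and the nulliparous tumours spanned 13.1 to 26.1 with a median of 16.1. The multiparous values lay on both sides of the nulliparous range. The same 4 tumours had miR-101b-3p at 29.8, 44.5, 12.9 and 18.6, against 14.3 to 38.4 with a median of 15.7 in the nulliparous ones. Multiparous minus nulliparous was 0.69 (SE 0.40, interval -0.20 to 1.59) for miR-101a-3p and 0.29 (SE 0.16, interval -0.08 to 0.65) for miR-101b-3p, both with a limma adjusted p of 0.777. Without MetTrp53 tumour 3 the differences were 0.05 and 0.11. limma called 0% of the 330 miRNAs, with 17 at an unadjusted p under 0.05, and 0 with a trended, robust variance model.

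**Figure D3:**
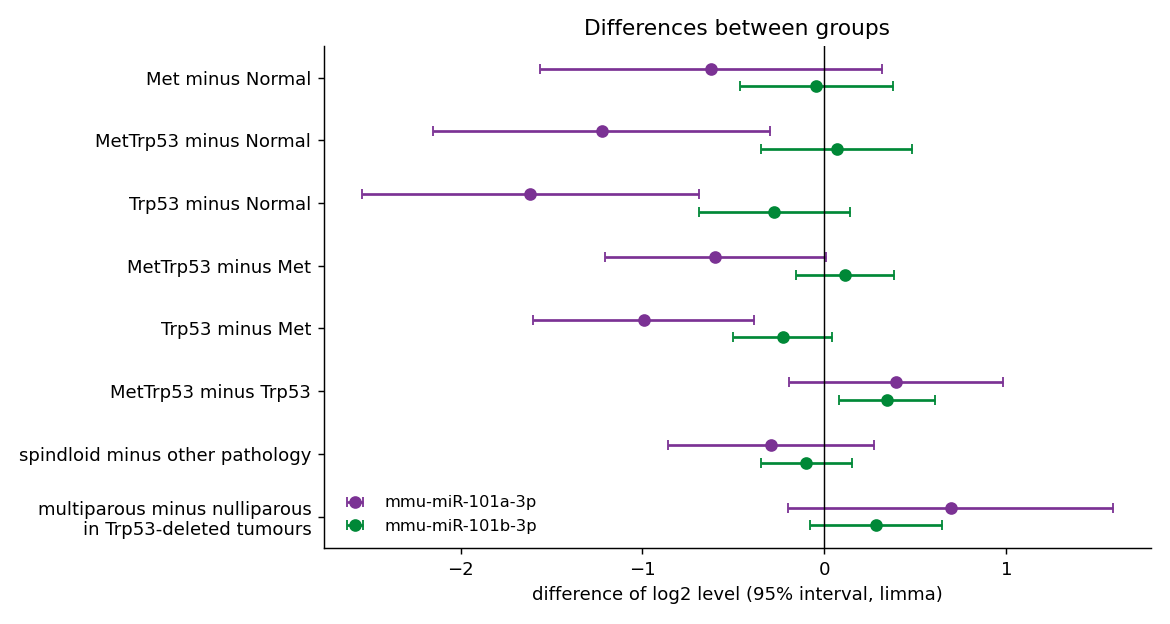
Differences of log2 level between groups (horizontal axis) for both miRNAs, with 95% intervals from limma; the first 5 lines involve the contrasts that chose the miRNAs and carry no test. miR-101a-3p is lower in Trp53 than in normal (-1.62) and in Met tumours (-0.99), miR-101b-3p is nearer to 0 in those lines, and in the last 3 lines neither miRNA was called.

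The other mature products of these genes were read beside the members. The passenger strands mmu-miR-101a-5p and mmu-miR-101b-5p were not well above background on any array. The brighter mmu-miR-101c probe followed miR-101a-3p. It had 36.4 and 43.3 in the pools, 13.6 to 25.99 in Met tumours, 4.19 to 47.6 in MetTrp53 tumours, and 3.81 to 9.95 in Trp53 tumours, with MetTrp53 tumour 3 again the highest of all. It was well above background on both pools, 6 of 7 Met arrays, and 1 of 8 arrays in each Trp53-deleted group. As miR-101c is contained in miR-101a-3p, RNA of the 2 cannot be told apart here, and the same holds in part for the members, which differ at 1 of 18 aligned bases; probe sequences were not analysed here. Over the 23 tumours the log2 levels of miR-101a-3p and miR-101c had r = 0.876 (0.812 without MetTrp53 tumour 3). In these levels miR-101c sat at the floor in every Trp53-deleted tumour except MetTrp53 tumour 3. That r therefore rests mainly on the Met tumours and on tumour 3. The levels of the 2 members had r = 0.675 (0.725 within genotypes, 0.478 without MetTrp53 tumour 3). These arrays share their scaling, and the correlations are descriptions.

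Markers of other cells differed between the groups as well. In a bulk sample, fewer cells of a type and less RNA per cell cannot be told apart. The summed level of 10 epithelial miRNAs (the miR-200 family, miR-203, miR-205 and the miR-183 cluster, typical of epithelial cells) was 4122 in MetTrp53 tumour 3. That was the highest of its group, where the median was 231. The 12 carcinomas, of which this tumour is 1, spanned 122 to 5204 with a median of 2687. The epithelial sum was 769 and 848 in the pools, 134 to 5204 in Met tumours and 116 to 2653 in Trp53 tumours, and 4 of its 10 miRNAs were lower in Trp53-deleted than in Met tumours by limma's test, with none higher, where 11.5% of all miRNAs were called. In the same contrast 1 of 5 leukocyte miRNAs was higher, and no miRNA of the mesenchymal, muscle, adipose, endothelial or erythroid lists was called. Over the tumours, the log2 epithelial sum had r = 0.589 with miR-101a-3p (0.380 within genotypes, 0.550 without MetTrp53 tumour 3) and r = 0.430 with miR-101b-3p. The sum of 7 mesenchymal miRNAs had r = -0.491 and -0.409 with the 2 members. The adipose sum had r = 0.464 and 0.299, and the endothelial sum -0.411 and -0.306. Within genotypes the adipose sum had r = 0.443 and 0.498, above the epithelial sum's 0.380 and 0.435. The leukocyte sum had r = -0.292 and -0.049, the erythroid sum -0.273 and -0.255, and the muscle sum -0.035 and -0.021. Against normal gland, all 5 muscle miRNAs, 2 of 3 adipose, 2 of 2 endothelial and 3 of 7 mesenchymal miRNAs were lower in tumours, with muscle sums of 10298 and 14586 in the pools against a median of 58.1, that of all 5 at the floor, in each tumour group. In that contrast 12.7% of all miRNAs were called, and none of the 10 epithelial, 5 leukocyte or 2 erythroid miRNAs was. A miRNA could pass the detection filter through the pools alone, and if absent from tumours it could be called only as lower. The calls lower in tumours, here and among all miRNAs, may include such miRNAs, which were not counted apart. The part of these cell types in the members' levels was not tested.

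The miRNAs whose levels were most like the members' over 23 tumours were sought among the 128 with signal well above background on every array. For miR-101a-3p they were miR-148b-3p (r = 0.745), miR-148a-3p (0.714), miR-30b-5p (0.683), miR-146b-5p (0.661) and miR-5100 (0.649). The 3 least like it were miR-99b-5p (-0.560), let-7e-5p (-0.576) and miR-125a-5p (-0.635). Those 3 lie within 647 bases on the plus strand of chromosome 17 in the RefSeq table and are known as 1 cluster. For miR-101b-3p the most alike were miR-3968 (0.759), miR-3963 (0.712), miR-148b-3p (0.687), miR-5100 (0.656) and miR-720 (0.629), and the least alike miR-125a-5p (-0.432), miR-214-3p (-0.460) and let-7e-5p (-0.548). Without MetTrp53 tumour 3 its 5 highest became, in that order, 0.656, 0.664, 0.546, 0.515 and 0.437. Those of miR-101a-3p became 0.625, 0.721, 0.684, 0.720 and 0.496. Within genotypes the 5 of miR-101b-3p were 0.655, 0.616, 0.703, 0.528 and 0.474. Within genotypes the correlations of miR-101a-3p with the chromosome 17 cluster were -0.216, -0.288 and -0.345, and those with its 5 most alike miRNAs, in the order above, 0.682, 0.512, 0.509, 0.424 and 0.539. Neither member's level tracked the arrays' scaling percentile (r = -0.03 and -0.11).

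Other miRNAs reported to repress Ezh2 were read as a list of 15: miR-26a-5p, miR-26b-5p, miR-138-5p, miR-214-3p, miR-124-3p, miR-217-5p, miR-98-5p and 8 members of the let-7 family. Of these, 13 passed the detection filter, while miR-124-3p, known from neurons, and miR-217-5p were not well above background on any array. In tumours minus normal, 1 of 13 rose and 1 fell, against 12.7% called among all miRNAs, and the list's median was -0.13 beside 0.14 over all. miR-26b-5p fell by 1.13 (SE 0.30, limma adjusted p = 0.0111), and let-7e-5p rose by 1.12 (SE 0.26, adjusted p = 0.00390). miR-26a-5p differed by -1.20 (SE 0.41, adjusted p = 0.0547) and was not called. In Trp53-deleted minus Met, 1 of 13 rose and 1 fell, against 11.5%, with a median of 0.01 beside -0.004. There miR-26a-5p fell by 0.81 (SE 0.25, limma adjusted p = 0.0341), and let-7e-5p rose by 0.62 (SE 0.16, adjusted p = 0.0168). The largest difference, 1.34 for miR-214-3p, a mesenchymal miRNA, had an SE of 0.52 and an adjusted p of 0.102. Both shares are 2 of 13, near the background, and show nothing particular to the list. The calls also rested on few samples: with pathology as a covariate limma called none of the 13 and 0 miRNAs in all, without Met tumour 6 it called none of the 13, and without Met tumour 2 it called 5. None of the 13 was called for pathology, parity or MetTrp53 minus Trp53, where 0% of all miRNAs were.

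**Figure D4:**
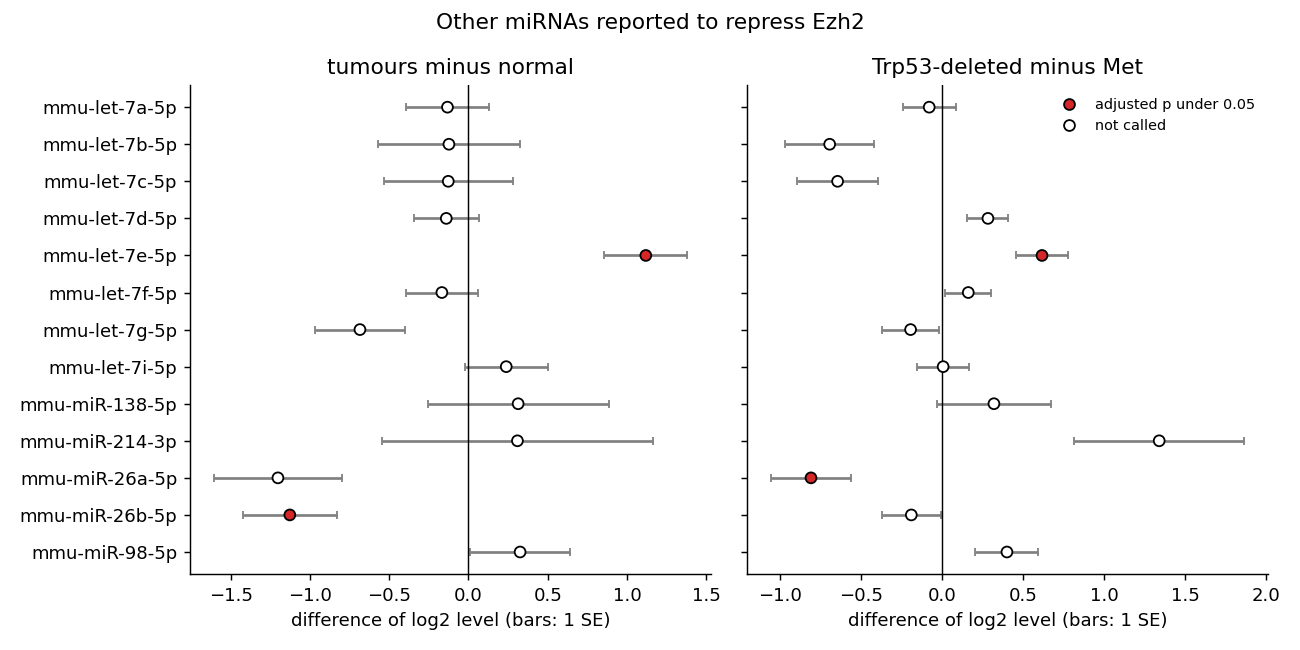
Differences of log2 level (horizontal axis, bars 1 SE) for the 13 other Ezh2-repressing miRNAs that passed the detection filter, in tumours minus normal (left) and Trp53-deleted minus Met (right); red points passed limma's adjusted p under 0.05. let-7e-5p rose in both (1.12 and 0.62), miR-26b-5p fell on the left (-1.13) and miR-26a-5p on the right (-0.81).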

How the data were processed

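Total RNA was Cy3-labelled and hybridised to 1-colour Agilent miRNA arrays. The deposited scanner files hold, per the file headers, a background-subtracted processed intensity and detection flags for each spot. They were written by Agilent's Feature Extraction software, version 10.7.3.1. The deposited value table holds log2 values; RMA is named in the submitters' processing notes, and the table's centring is not given in the sources used here. Only the scanner intensities entered the main values: outlier spots were left out, spots averaged per probe, each array divided by its 75th percentile over 221 probes, values floored at 0.0212 of that percentile, and probes averaged on the log2 scale. A miRNA was tested where the software's detection call was positive for 7 or more tumours or for the 2 pools, which kept 330. Those kept through the pools alone, which favours calls lower in tumours, were not counted apart. limma 3.58.1 (R 4.3.3; lmFit, eBayes) was fitted to all 330 with Benjamini-Hochberg adjustment and a threshold of 0.05, in 1 model of 4 groups or, for pathology and parity, with genotype as a covariate. The fitting code was checked on simulated levels with known differences. These were independent normal values with no floor, so the check does not cover signals near the floor. The 75th percentiles were 279 to 909, and 14.0% to 21.9% of spots were well above background; the number of arrays limits the precision.

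Alternatives tried were normexp (offset 50, on median signals, since the files hold no mean signal), other scalings, probes, floors and filters, slide or scan date as a block, and leaving samples out. Named miRNAs were the members, other products of their genes, the Ezh2 list, and for each member the 5 highest and 3 lowest correlations. Members and lists were chosen with earlier results of these data known.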

Additional observations from a re-analysis of the deposited data

Results flagged for a closer look

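MetTrp53 tumour 3 stood far above the other 7 tumours of its group in mmu-miR-101a-3p. Its log2 level was 6.346, and the gap to the next tumour was 0.738 of the group's whole range, above Dixon's critical value of 0.526 for 8 samples. On the brighter probe alone its log2 scaled intensity was 6.508, with a gap of 0.712 of the range. These are 2 readings of 1 tumour among 16 checks of the members, of which chance alone flags about 1 in 20. The same tumour had the highest scaled intensity of all 25 arrays in mmu-miR-101b-3p and mmu-miR-101c.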

How the results depend on the processing

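miR-101a-3p kept its direction under every alternative run for all 5 comparisons, with differences of -0.88 to -0.19 for Trp53-deleted minus Met and -1.51 to -0.24 for tumours minus normal. The values nearest 0 came from normexp, which adds 50 units to signals of this size: -0.19 for Trp53-deleted minus Met and -0.24 for tumours minus normal. miR-101b-3p changed sign in contrasts near 0. For tumours minus normal it was 0.22 with normexp and 0.037 with slide as a block, and -0.36 in the authors' table; without 1 pool it ranged from -0.19 (multiparous pool left out) to 0.018 (nulliparous pool left out). For Trp53-deleted minus Met it was 0.015 with normexp and 0.073 with pathology as covariates. With no detection filter, miR-101b-3p in MetTrp53 minus Trp53 (0.34) had a limma adjusted p of 0.0209, the only call among its alternatives, whose adjusted p-values otherwise ran from 0.183 to 0.953; 701 of the 721 miRNAs then called sat at the floor on all arrays, with differences under 0.01. Without each of the 7 Met tumours in turn, or without MetTrp53 tumour 3 (the other Trp53-deleted tumours were not left out), the differences of Trp53-deleted minus Met ranged from -0.94 to -0.70 for miR-101a-3p and from -0.11 to -0.01 for miR-101b-3p.

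The counts of miRNAs called moved more. Trp53-deleted minus Met gave 38, 0 with pathology as covariates, 24 with the percentile over all probes, 12 with no detection filter, 25 among miRNAs above background on all arrays, and 61 with the brightest probe and a lower floor, which was chosen after seeing the data, as was leaving out MetTrp53 tumour 3 for the pathology, normal and Met contrasts. Without 1 Met tumour the count was 16 to 62. Tumours minus normal gave 42, 26 with normexp, 24 among miRNAs above background on all arrays, 17 without the multiparous and 26 without the nulliparous pool; the list's calls there were 0 and 1 without these pools. Spindloid minus other pathology gave 0, but 6 with normexp and 16 without intermediate tumours. The percentile over all probes moved the median tumours-minus-normal difference of the 128 miRNAs above background on all arrays from 0.26 to -0.06. It moved the higher share of calls from 38.1% to 11.4%. Under that scaling let-7e-5p was called in neither contrast (limma adjusted p = 0.229 and 0.0956) and miR-26a-5p only against normal (0.0273). The members are not among the miRNAs above background on all arrays, so that filter gave them no value. No paired analysis was possible because the labels give no replicate numbers shared between groups. With the 2 pairs of Trp53 tumours that share a title number each averaged, Trp53-deleted minus Met was -0.78 for miR-101a-3p and MetTrp53 minus Trp53 was 0.35 for miR-101b-3p (limma adjusted p = 0.401). The members' signals lie close to background, which limits small differences.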
